A study of Nothobranchius furzeri with 42 samples.

Results

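Heart was compared with the muscle of the caudal fin within the same fish, across every gene of the deposited count table. A fish was taken from the prefix that its library titles share, which gave 9 fish with 1 heart and 1 muscle library each. These are 18 of the 42 libraries of the series and all of its heart and muscle libraries, and all 25475 gene IDs of the table entered. The animals were female African turquoise killifish (Nothobranchius furzeri, strain GRZ), a fish that ages within months. They were held at 28 °C and sampled at 19 weeks of age. The 5 fish called alendronate fish 1 to 5 here had lived for 3 weeks, from 16 weeks of age on, with 10 µM alendronate in the system water, and the 4 fish called placebo fish 1 to 4 had received distilled water instead. Alendronate is a bisphosphonate drug that binds to bone mineral. Both arms entered the comparison of the tissues, with the fish as a block, so that each heart was set against the muscle of its own animal.

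Heart and skeletal muscle are both striated muscle, and both contract by sliding actin along myosin in sarcomeres. They build much of this machinery from different members of the same gene families, with heart and skeletal forms of myosins, troponins and calcium channels. The heart beats without pause and lives mainly on mitochondrial respiration, while fast skeletal muscle relies on glycolysis for short bursts. Which fibre types the sampled fin muscle held is not known here. A heart sample also holds valves, vessels and blood, and a piece of fin muscle can hold skin, nerve and bone, so neither tissue is a single cell type. The deposited table gives no names beside its gene IDs, and 0 of the 25475 IDs matched the gene table at hand. Which of these families a gene belongs to could therefore not be read, the tissue labels could not be checked against marker genes, and genes are described by their levels and by the tissues in which they were found.

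Total counts ran from 22497686 to 27422766 in heart and from 22171430 to 35717250 in muscle. Of the 25475 genes, 24248 had at least 1 read in these libraries and 16064 passed a filter on low counts. Most libraries lay close to the others of their tissue. The median absolute deviation of a library from the mean of the other 8 of its tissue, over 13149 genes present in both tissues, was 0.404 log2 units in the heart of alendronate fish 3, against 0.151 to 0.239 in the other hearts. It was 0.358 in the muscle of placebo fish 4 and 0.337 in that of placebo fish 1, against 0.170 to 0.272 in the other muscles. Without these 3 fish the counts of genes given next changed little, with 2166 genes beyond 2-fold higher in heart and 2520 lower.

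Most genes differed between heart and muscle. In edgeR's quasi-likelihood test with fish as a block, 5993 genes were higher in heart and 5387 were lower at a Benjamini-Hochberg adjusted p of 0.05, together 70.8% of the 16064 genes tested (37.3% higher and 33.5% lower). A test against a 2-fold limit, with the same adjustment, called 2153 genes higher in heart by more than 2-fold and 2484 lower, which are 13.4% and 15.5% of the genes tested. These 2 groups are called heart-higher and muscle-higher genes below. In bulk tissue, a lower level can come from fewer cells of a type or from less RNA per cell, and these cannot be told apart.

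The split between the directions rested on the scaling. The values here were scaled with TMM factors, which adjust library totals so that most genes sit near equal levels. The factors ran from 1.16 to 1.61 in heart and from 0.647 to 0.828 in muscle, so that an equal share of reads counts as a higher level in muscle. With them the median log2 fold change of all tested genes was 0.09. With library totals alone the median was 1.102, and 6994 genes were beyond 2-fold higher in heart against 1440 lower. Heart-higher genes were 46.4% of the calls beyond 2-fold with TMM, 43.9% with the size factors of DESeq2, 47.5% with upper-quartile factors and 82.9% with library totals alone. Directions are therefore given relative to the bulk of genes. Shares of reads use no factors themselves, but which genes count as heart-higher or muscle-higher does depend on them.

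The differences were larger for genes higher in muscle. Among heart-higher genes, 928 had a fitted log2 change between 1 and 2, 896 between 2 and 4, 197 between 4 and 6, 107 between 6 and 10 and 25 over 10. Among muscle-higher genes the same classes held 798, 880, 395, 306 and 105 genes. More than 16-fold were 329 heart-higher genes (15.3% of them) and 806 muscle-higher genes (32.4% of them). With library totals alone the order of the counts turned round, with 603 heart-higher and 581 muscle-higher genes past 16-fold. These stood beside 6994 heart-higher and 1440 muscle-higher genes beyond 2-fold. As a share of its group, the muscle-higher side was still the larger. With every other scaling tried the muscle-higher genes past 16-fold outnumbered the others. The median log2 fold change was 2.18 for heart-higher and -2.73 for muscle-higher genes, beside 0.09 for all genes tested.

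**Figure D1:**
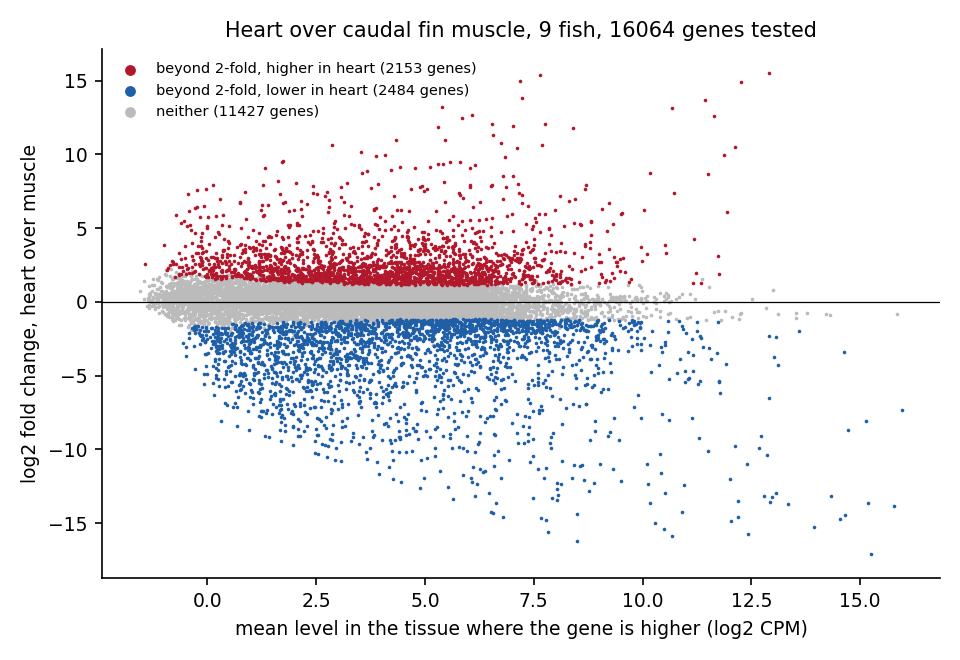
Each point is 1 of 16064 genes, with its mean level in the tissue where it is higher (log2 CPM) on the horizontal axis and the fitted log2 fold change of heart over muscle on the vertical axis. The 2153 heart-higher genes lie above 0 and the 2484 muscle-higher genes below, and the cloud of muscle-higher genes reaches further down and further to the right.

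A few genes filled a large part of the muscle libraries, and the heart libraries were spread over more genes. The 10 genes with the most reads took 14.4% ± 2.33 (SD, n = 9) of heart counts, with a lowest, median and highest library of 11.6%, 14.3% and 18.5%. In muscle they took 27.9% ± 1.89 (SD, n = 9), with 24.4%, 27.9% and 31.2%. The ranges did not overlap, and the share was lower in heart in 9 of 9 fish, by 13.6 percentage points (exact sign-flip permutation test over fish, two-sided p = 0.00391, adjusted over 4 library measures p = 0.00521). That p is the smallest that 9 pairs allow.

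The number of genes needed to reach 50% of the counts showed the same contrast. It was 333 ± 78.7 genes in heart, from 172 in alendronate fish 3 to 431 in placebo fish 4, and 51.7 ± 14.8 genes in muscle, from 37 in placebo fish 3 to 78 in placebo fish 4 (SD, n = 9 each). It was higher in heart in all 9 fish (exact permutation p = 0.00391, adjusted p = 0.00521). Thinning every library to 22171430 counts left the mean difference at 281 genes. The single gene with the most reads did not set this contrast, since it took 4.54% ± 0.919 of heart and 4.99% ± 0.615 of muscle counts (SD, n = 9). The next ranks did, and the first 100 genes took 35.8% ± 3.32 of heart and 58.0% ± 3.18 of muscle counts.

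**Figure D2:**
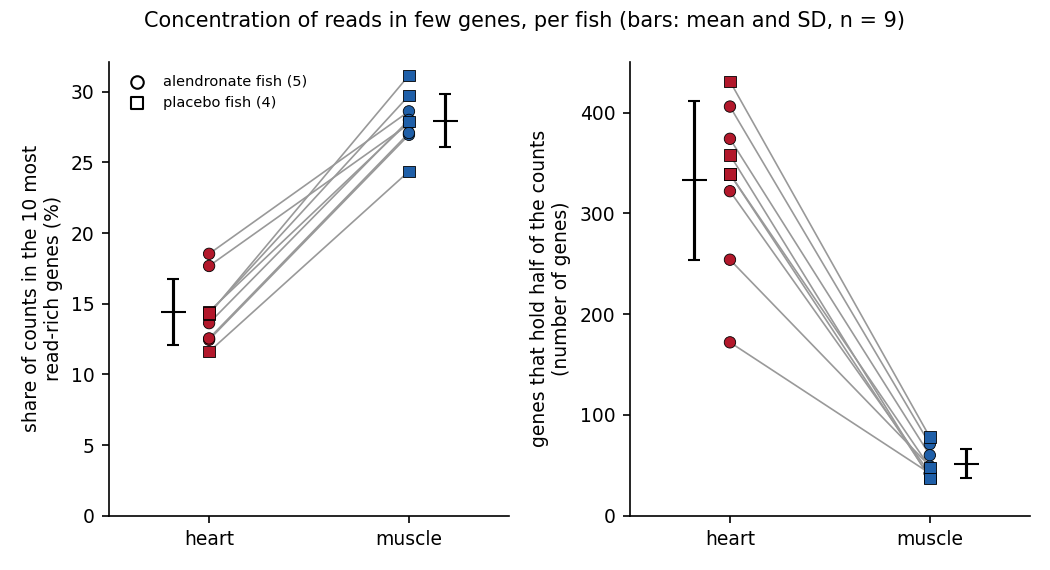
Left, the share of a library's counts in its 10 genes with the most reads (%). Right, the number of genes that together hold 50% of the counts. Lines join heart and muscle of 1 fish, circles are alendronate and squares placebo fish, and the bars beside the points give mean and SD of 9 libraries. All 9 lines go the same way in each plot.

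Total counts were also uneven, at 24415716 ± 2070175 in heart and 27956748 ± 3787495 in muscle (SD, n = 9 each), lower in heart in 7 of 9 fish (exact permutation p = 0.0234, adjusted p = 0.0234). The number of genes at 1 CPM or more (CPM being counts scaled to TMM-adjusted library totals), 13860 ± 130 in heart and 14282 ± 233 in muscle, was lower in heart in 9 of 9 fish with TMM scaling (exact permutation p = 0.00391, adjusted p = 0.00521). The direction reversed with library totals alone, where the mean difference was 870 genes more in heart.

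The muscle-higher genes held most of the muscle reads. They took 8.34% ± 0.258 of heart counts and 57.8% ± 2.05 of muscle counts (SD, n = 9 each). Heart-higher genes took 23.2% ± 1.23 of heart counts and 1.83% ± 0.253 of muscle counts. The genes in neither group made up 68.3% ± 1.15 of heart and 40.3% ± 2.06 of muscle counts. These shares describe genes that were chosen by the same contrast and carry no test. Reads per gene also depend on transcript length, which the files do not give, so a share of reads is not a share of molecules.

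With TMM scaling, the genes with the most reads in heart were mostly not heart-higher. The same held for all genes tested, of which 13.4% were heart-higher and 15.5% muscle-higher. Ranking by level in a tissue also favours genes higher in that tissue. The ranks use shares without factors and the calls use TMM, and how the lists divide under another scaling is not given. Of the 10 genes with the highest mean share in heart, 1 was a heart-higher gene, 0 were muscle-higher and 9 were in neither group. Of the 10 highest in muscle, 9 were muscle-higher and 1 was in neither group, and 1 gene stood in both lists. The first 10 heart genes together took 14.3% of heart counts and 10.6% of muscle counts. The first 10 muscle genes took 4.93% of heart counts and 27.4% of muscle counts.

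With the same TMM-based calls, longer lists showed the same difference between the tissues. Among all genes tested 13.4% were heart-higher and 15.5% muscle-higher. Among the first 100 genes of heart, 25 were heart-higher, 6 muscle-higher and 69 in neither group. Among the first 100 of muscle, 71 were muscle-higher, 0 heart-higher and 29 in neither group. The lists shared 35 genes, which is 35% of each. Among the first 500 they shared 273 genes, or 54.6% of each. In the list of heart, 138 of these 500 genes were heart-higher, and in the list of muscle 267 were muscle-higher.

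Muscle-higher genes were most frequent among genes with many reads. Of 171 genes with a mean over 1000 CPM in the tissue where they were higher, 23 (13.5%) were heart-higher and 90 (52.6%) muscle-higher. Of 1433 genes between 100 and 1000 CPM, 245 (17.1%) were heart-higher and 519 (36.2%) muscle-higher. Between 10 and 100 CPM the groups were near even, with 1078 heart-higher (13.8%) and 957 muscle-higher genes (12.2%) of 7816. The excess of muscle-higher genes at the top was 96 against 21 heart-higher with the size factors of DESeq2. With library totals alone the groups were equal in number in the top class, at 66 heart-higher and 66 muscle-higher genes of 183. From 10 to 100 CPM, 3885 of 8290 genes were then heart-higher and 475 muscle-higher. Muscle-higher genes were thus still a larger share of the top class than of that one.

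**Figure D3:**
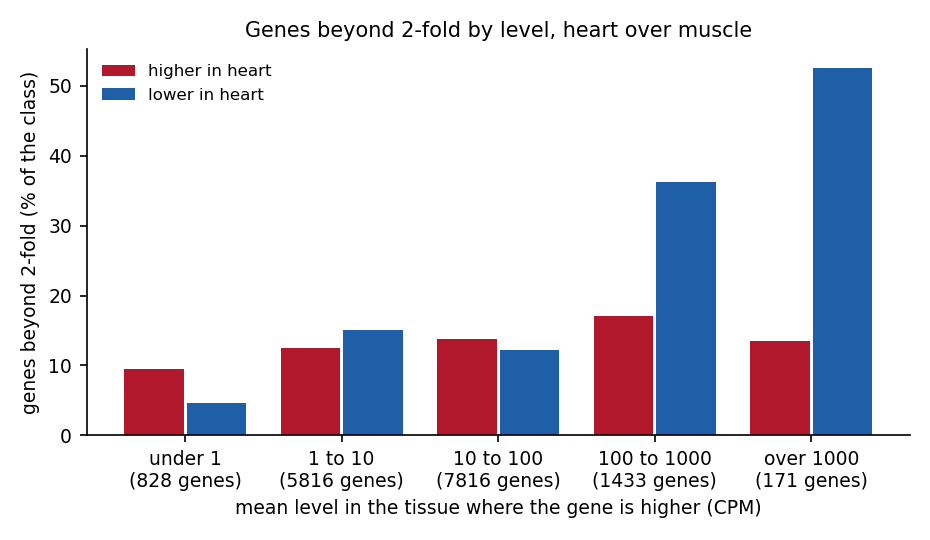
Bars give the share of tested genes (%) that were heart-higher or muscle-higher by more than 2-fold, in 5 classes of the mean level (CPM, TMM-scaled) in the tissue where the gene was higher. Heart-higher genes stay between 9.42% and 17.1% of each class, and muscle-higher genes go from 4.59% under 1 CPM to 52.6% over 1000 CPM.

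Given the TMM scaling, the data bound the difference closely for many genes. The intervals hold that scaling fixed and leave out its uncertainty. With library totals alone the median log2 fold change of all tested genes was 1.102, against 0.09 with TMM. A 95% confidence interval that stayed inside 2-fold either way was found for 7014 genes (43.7% of those tested) and one within 0.5 log2 units of 0 for 2303 genes (14.3%). Of the 644 genes that averaged 100 CPM or more in both tissues, 375 had an interval within 2-fold, and of the 46 at 1000 CPM or more in both, 22 did. Another 6743 genes passed the test of any difference without passing the 2-fold limit. The median standard error of a log2 fold change was 0.16.

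Few genes were read in a single one of the tissues. With a limit of at least 1 CPM in all 9 libraries of one tissue and under 0.1 CPM in all 9 of the other, 22 genes were found in heart alone and 118 in muscle alone, or 0.137% and 0.735% of the genes tested. The limit of 0.1 CPM allows 3 or 4 reads in a heart library and 1 or 2 in a muscle library, so it is easier to pass for a gene of muscle alone than for a gene of heart alone. The limit of 1 CPM leans the same way. A single read was 0.0247 to 0.0325 CPM in heart libraries and 0.0422 to 0.0697 CPM in muscle libraries. How these counts change with another scaling was not tested. The mean levels ran from 1.69 to 199 CPM for the 22 heart genes (median 11.7) and from 1.59 to 1646 CPM for the 118 muscle genes (median 7.73). A total of 6 of these heart genes had a count of 0 in every muscle library, and 21 of these muscle genes had a count of 0 in every heart library. A count of 0 limits a level to what the depth can show and does not show absence.

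The next values follow single genes, 2 in each direction, given by ID. The first is the gene with the highest mean level among those higher in that tissue. The second has the largest fitted fold change among genes with reads in most libraries of the other tissue. ENSNFUG00015019632 led the heart-higher genes. Its level was 6453, 7970, 12825, 7066 and 7425 CPM in the hearts of alendronate fish 1 to 5 and 6997, 6524, 6717 and 7232 CPM in those of placebo fish 1 to 4. In muscle it had 0 reads in 7 of 9 libraries, 2 reads in alendronate fish 2 (0.110 CPM) and 119 reads in placebo fish 4 (5.58 CPM). Every heart lay above every muscle by more than the whole spread among fish, and 1 muscle library held nearly all of the muscle reads. Its log2 change, as fitted, was 15.49, standard error 1.03 (edgeR quasi-likelihood test, adjusted p = 1.27e-07). It was 18.76 without placebo fish 4, so its size depends on that library. That value lies outside the 95% interval of the full fit, 13.2 to 17.78. The standard error therefore understates how uncertain the size is. Its highest level outside heart and muscle was 3.77 CPM in a spleen library.

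ENSNFUG00015022814 had the largest fitted change by the second rule. Its mean was 1644 ± 399 CPM in heart, with a lowest, median and highest library of 698, 1695 and 2104 CPM, and 0.175 ± 0.230 CPM in muscle, from 0 to 0.704 CPM (SD, n = 9 each). The lowest heart was that of alendronate fish 3, the same heart in which ENSNFUG00015019632 was highest. Its log2 change was 13.12, standard error 0.49 (edgeR, adjusted p = 6.13e-11), and the groups were far apart. In other tissues its highest level was 6.06 CPM, in a kidney library.

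ENSNFUG00015007012 led the muscle-higher genes and supplied 0.0616% of heart reads on average, against 4.38% of muscle reads. Its level in heart was 197 to 1054 CPM with a median of 336, the highest being alendronate fish 1, and in muscle it was 37561 to 92801 CPM with a median of 64577. The groups did not overlap, but the gene was well above the detection limit in every heart. The log2 change of heart over muscle was -7.35, standard error 0.34 (edgeR, adjusted p = 1.49e-10). It reached 1166 CPM in 1 kidney library and at most 23.3 CPM in spleen and 2.84 CPM in liver.

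ENSNFUG00015003794 averaged 0.605 ± 1.26 CPM in heart and 39083 ± 7370 CPM in muscle (SD, n = 9 each). The hearts held 2, 2, 20, 126 and 3 reads in alendronate fish 1 to 5 and 2, 20, 1 and 3 reads in placebo fish 1 to 4, and the muscles from 385100 to 1101888 reads. The heart of alendronate fish 4 stood out at 3.90 CPM, and the other 8 hearts were at or under 0.627 CPM. Its log2 change was -17.07, standard error 0.90 (edgeR, adjusted p = 6.52e-09), and -17.78 without alendronate fish 4. Outside heart and muscle its highest level was 726 CPM in a kidney library, with at most 10.9 CPM in spleen and 3.29 CPM in liver.

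**Figure D4:**
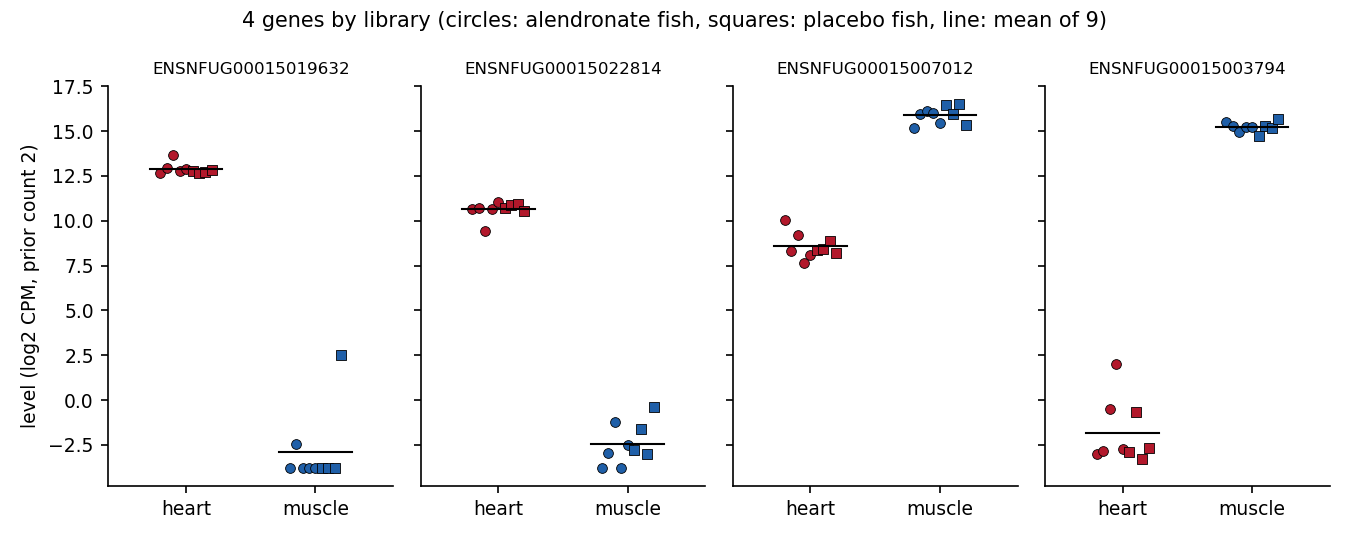
Level (log2 CPM with a prior count of 2) of 4 genes in each heart and muscle library, with circles for alendronate fish, squares for placebo fish and a line for the mean of 9. Heart and muscle do not overlap in any of the 4 genes. In the tissue where a gene is low, single libraries stand above the others. Examples are the muscle of placebo fish 4 for ENSNFUG00015019632 and the heart of alendronate fish 4 for ENSNFUG00015003794.

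Traces of the strongest genes of one tissue in libraries of the other differed between fish. A set of 60 genes had a median of at most 1 ppm of the reads in heart and averaged 100 ppm or more in muscle. In heart they summed to 52.2 ppm of reads in alendronate fish 4, 31.4 in alendronate fish 2, 27.5 in placebo fish 4 and 26.1 in alendronate fish 3, and to between 13.1 and 23.8 in the other 5 hearts. In muscle these genes took 9.07% to 12.4% of counts. A set of 29 genes chosen the same way for heart took 2.83% to 4.02% of heart counts. In muscle they summed to 16.8 ppm of reads in placebo fish 4, 14.9 in placebo fish 3 and 11.7 in placebo fish 1, and to between 4 and 7.98 in the other 6 muscles. Of the 29 genes, 16 had reads in the muscle of placebo fish 4, 23 in that of placebo fish 3 and 20 in that of placebo fish 1. In placebo fish 4, ENSNFUG00015019632 alone supplied 119 reads. The part of these traces in the fold changes of near-exclusive genes was not tested. Without alendronate fish 4 and placebo fish 4 the genes beyond 2-fold were 2055 heart-higher and 2469 muscle-higher.

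The difference between the tissues was much the same in every fish. Of the heart-higher genes 2080 (96.6%) had the same sign in all 9 fish, and of the muscle-higher genes 2397 (96.5%), beside 51.2% of all genes tested. More than 2-fold in each single fish were 1339 heart-higher genes (62.2%) and 1711 muscle-higher genes (68.9%). The median log2 ratio of heart to muscle ran from 2.04 to 2.30 over the fish for heart-higher genes and from -2.89 to -2.49 for muscle-higher genes. These members were chosen with the same fish, so the values describe how even the calls are and do not test them. The log2 ratios of a fish correlated across 13149 genes with the mean of the other 8 fish at r = 0.876 in placebo fish 1, 0.882 in alendronate fish 3 and 0.897 in placebo fish 4, and at 0.922 to 0.948 in the other 6.

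The arms, which share no fish, gave largely the same genes. Each arm was fitted alone on the 16064 genes tested above. The alendronate fish gave 1978 heart-higher genes (12.3%) and 2255 muscle-higher genes (14.0%), and the placebo fish 1682 (10.5%) and 2183 (13.6%). With the low-count filter set within each arm the counts were 1983 and 2273 with alendronate and 1710 and 2208 with placebo. A total of 1508 heart-higher genes were common to both, which is 76.2% of the alendronate and 89.7% of the placebo list, and 1950 muscle-higher genes were, 86.5% and 89.3% of the lists. Genes called in opposite directions numbered 0, while 1875 of all 16064 genes (11.7%) had fitted changes of opposite sign in the arms. Across 16064 genes, which are not independent of each other, the log2 fold changes of the arms correlated at Pearson r = 0.971 and Spearman rho = 0.931, and the median absolute difference was 0.253 log2 units.

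In edgeR no gene was found whose heart-to-muscle difference depended on alendronate. The tissue-by-arm term called 0 of 16064 genes (0% called), with a smallest adjusted p of 0.856, and limma-voom also called 0. Without adjustment 830 genes had a p under 0.05, which is 5.17% of those tested. The 95% interval of the arm difference lay within 2-fold for 8500 genes (52.9%), and for the rest a 2-fold difference between arms remains within the interval. DESeq2 called 1 gene, ENSNFUG00015021536, which is named here after its values were seen. In heart its level was 3178, 3206, 4560, 3114 and 1888 CPM in alendronate fish 1 to 5 and 2702, 2142, 2365 and 1844 CPM in placebo fish 1 to 4. In muscle it was 2708, 3602, 6129, 3744 and 2493 CPM in alendronate fish 1 to 5 and 9001, 4900, 7665 and 4114 CPM in placebo fish 1 to 4. The levels of the arms overlapped in each tissue, but the ratio of heart to muscle within a fish did not. It was 1.17, 0.890, 0.744, 0.832 and 0.757 in alendronate fish 1 to 5 and 0.300, 0.437, 0.308 and 0.448 in placebo fish 1 to 4. The arm difference in log2 ratio was 1.24 in both tools, at an adjusted p of 0.00048 in DESeq2 and 0.856 in edgeR, where the unadjusted p was 0.000209.

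Fish differed from each other by a like amount in the tissues. For the 13149 genes at 1 CPM or more in both, the median SD of log2 CPM between fish, after removing the arm mean, was 0.290 in heart and 0.324 in muscle, and 5634 genes (42.8%) had the larger SD in heart. The common biological coefficient of variation from edgeR was 0.299 in heart and 0.293 in muscle, in the other order, so neither tissue was the more variable by both measures. The gap depended on single fish. Without alendronate fish 3 the median SD was 0.242 in heart and 0.334 in muscle, without placebo fish 1 it was 0.300 in each, and without placebo fish 4 it was 0.292 in heart and 0.293 in muscle.

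Some of the genes that differed between the tissues were also uneven between fish within their own tissue. Of 268 heart-higher genes that averaged 100 CPM or more in heart, the highest heart exceeded the lowest more than 5-fold in 13 (4.85%) and more than 10-fold in 6, with a median ratio of 1.82. Of 609 muscle-higher genes at that level in muscle, 33 (5.42%) passed 5-fold and 13 passed 10-fold, with a median of 2.02. Among 491 genes in neither group and at least 100 CPM in both tissues, 5 (1.02%) passed 5-fold in heart and 9 (1.83%) in muscle. Their median ratios were 1.8 in heart and 1.82 in muscle. In heart the medians were thus near each other, and the contrast lay in the few widest genes. The widest gene in heart spanned 360-fold, from 20.7 CPM in alendronate fish 1 to 7446 CPM in alendronate fish 4. The widest in muscle spanned 559-fold, from 1.07 CPM in placebo fish 3 to 598 CPM in alendronate fish 5. Both ends of the heart span lay within 1 arm, and the ends of the muscle span lay in different arms.

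The levels of these genes in liver, spleen and kidney, which had no part in the comparison, differed by direction. Of the heart-higher genes 79.5% averaged 1 CPM or more in liver, 82.9% in spleen and 85.1% in kidney. Of the muscle-higher genes 63.7%, 64.0% and 76.0% did, and of all genes tested 85.6%, 87.4% and 90.2%. Genes under 1 CPM in all 3 of these tissues made up 8.22% of the heart-higher (177 genes), 17.4% of the muscle-higher (431 genes) and 6.26% of all tested genes. Median levels pointed the same way, at 10.1 CPM in spleen for heart-higher and 2.93 CPM for muscle-higher genes, beside 10.7 CPM for all. The share read elsewhere was thus larger for heart-higher genes in each tissue, which is a description without a test. The means gave both arms equal weight, and kidney had 5 alendronate and 2 placebo libraries.

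Among genes past 16-fold the shares read in liver, spleen and kidney were lower in both directions. Under 1 CPM in liver, spleen and kidney were 30.1% of the 329 heart-higher and 33.1% of the 806 muscle-higher genes past 16-fold. At 1 CPM or more in all 3 were 35.3% of the heart-higher and 23.6% of the muscle-higher ones, beside 81.1% of all genes tested. In kidney 55.0% of the heart-higher and 57.8% of the muscle-higher genes past 16-fold reached 1 CPM, in liver 51.4% and 36.8%, and in spleen 49.5% and 37.5%. The muscle-higher genes ENSNFUG00015007012 and ENSNFUG00015003794 reached 1166 and 726 CPM in their highest kidney library. How far single kidney libraries set the kidney shares, here and for all muscle-higher genes, was not tested.

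**Figure D5:**
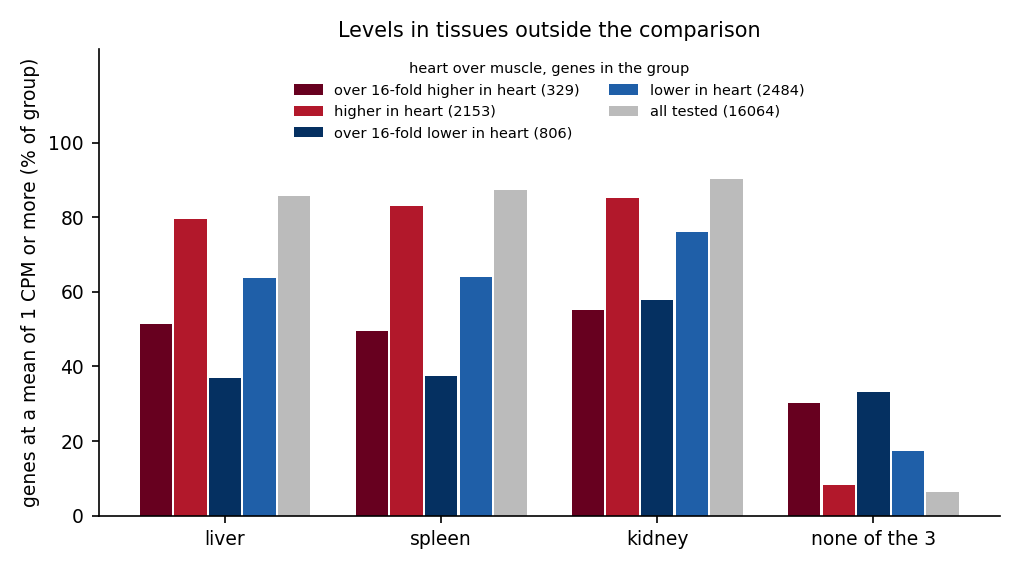
Share of genes (%) that averaged 1 CPM or more in liver, spleen and kidney, and under it in all 3, for heart-higher and muscle-higher genes, for those past 16-fold in each direction and for all 16064 genes tested. The heart-higher bars (79.5% to 85.1%) stand above the muscle-higher bars (63.7% to 76.0%) in each tissue.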

How the data were processed

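The authors deposited raw read counts, unnormalized, as 1 table with a row for each Ensembl ID. STAR 2.7.10b, SAMtools 1.13, Trim Galore 0.6.10, FastQC 0.12.1 and MultiQC 1.28 are listed by the submitters' processing notes, beside CASAVA and bcl2fastq, with no role. The program that counted, strandedness, build and annotation were not given in the sources used. Values of overlapping genes and near-identical copies are uncertain for that reason. The members and lists were chosen with earlier results of these data known.

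Heart and muscle libraries (18) were fitted together in edgeR 4.0.16 (R 4.3.3) with filterByExpr, TMM factors and robust quasi-likelihood F tests, fish and tissue as terms, and glmTreat for the 2-fold limit. The fit was also run on simulated counts in which few genes differed between the tissues, and its outcome is not given here. That run cannot check the scaling on which the split of directions rests. P-values are two-sided. CPM are counts scaled to TMM-adjusted library totals, and log2 CPM used a prior count of 2. Pairing comes from the library titles, which give each heart and muscle the same fish. Deviations from the arm means correlated across genes between heart and muscle of 1 fish at a mean r of 0.288 (above 0.1 in 8 of 9 fish). The lowest was -0.00224. Between different fish of an arm the mean r was -0.0774. Taking out the arm mean largely fixes that value once the same-fish values are known, so it is no separate check of the pairing. The p-values rest on the spread from fish to fish, and whether fish shared a tank is not given. Reads have no molecular identifiers, so depth limits cover counting error only. Levels in liver, spleen and kidney used TMM factors over all 42 libraries. Symbol lists and cell type markers could not be matched to the IDs and were not used. The named genes are, in each direction, the one with the highest mean CPM beyond 2-fold and the one with the largest fitted change among genes at 5 CPM or more with reads in most libraries of the other tissue. Other scalings, no filter, DESeq2 1.42.0, limma-voom (limma 3.58.1), single arms, no block, and fits without each fish were tried.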

Additional observations from a re-analysis of the deposited data

Results flagged for a closer look

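Within groups of 4 or 5 libraries, 9 of 40 comparisons had 1 library set apart by a Dixon gap test at the 95% level. For normally spread values about 1 in 20, or 2, would be set apart. That rate does not hold for genes with few or 0 reads, so the 9 cannot be measured against it. The heart of alendronate fish 3 and that of placebo fish 2 each appear more than once among the 9, so not all are separate events. The heart of placebo fish 4 had the lowest share of counts in its 10 genes with the most reads, 11.6% against 14.3% in the next placebo heart. The heart of placebo fish 2 was the deepest of its arm, with 25593034 counts against 22636920. The heart of alendronate fish 3 deviated from the other hearts by a median of 0.404 log2 units, against 0.239 in the next alendronate heart. The same heart had the highest level of ENSNFUG00015019632, 12825 CPM against 7970 CPM.

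The other 5 comparisons concern genes near 0 in the tissue in question. ENSNFUG00015019632 reached 5.58 CPM in the muscle of placebo fish 4 and 0.110 CPM in that of alendronate fish 2, while the other muscles had 0 reads. Where all other libraries of a group have 0 reads, any read sets a library apart by this test. ENSNFUG00015022814 stood at 0.347 CPM in the muscle of alendronate fish 3, against 0.0992 CPM in the next. ENSNFUG00015003794 stood at 3.90 CPM in the heart of alendronate fish 4, against 0.627 CPM, and at 0.545 CPM in that of placebo fish 2, against 0.083 CPM.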

How the results depend on the processing

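Library totals alone, a choice made after seeing the data, moved the counts most. At an adjusted p of 0.05 in edgeR they gave 11666 genes higher in heart and 2297 lower, and beyond 2-fold 6994 and 1440. They also reversed the difference in genes at 1 CPM or more, to 870 more in heart. The other scalings, no filter, DESeq2, limma-voom and each arm alone kept each of these 4 counts within 1.5 times of its value. No replicate block gave 5799 genes higher and 5314 lower, and beyond 2-fold 2037 and 2402. Leaving out each fish in turn gave 5710 to 5950 genes higher and 5166 to 5365 lower, and beyond 2-fold 2063 to 2155 and 2412 to 2516. DESeq2 called 1 gene for the arm difference. The edgeR fits without 1 fish each called 0, as edgeR did with all fish. DESeq2 was not refitted without single fish, so how its call depends on them was not tested.

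With the alendronate fish alone the heart-minus-muscle differences were -12.7 percentage points for the 10 genes with the most reads, 253 genes for 50% of counts, -352 genes at 1 CPM and -2198016 counts, and with the placebo fish alone -14.6, 316, -508 and -5219802. With 5 and 4 fish the exact test cannot go below 0.0625 and 0.125, so none of these can pass. Genes in heart alone numbered 10 with 5 CPM as the limit and 6 with a count of 0 in muscle, and genes in muscle alone 54 and 21. With 5 CPM as the limit in the other tissues, 1155, 1352 and 1342 of 2153 heart-higher genes reached it in liver, spleen and kidney. A total of 542 reached it in none of them and 962 in all 3. Of the 2484 muscle-higher genes 1034, 1055 and 1210 reached it in these tissues, 988 in none and 744 in all 3. The share of all genes tested at 5 CPM is not given, so these counts have no background beside them. By construction, stricter limits leave fewer genes that pass and more that reach the limit in none of the other tissues. The fitted change of ENSNFUG00015019632 ran from 15 to 18.76 without each fish. At these depths a level under 0.1 CPM rests on few reads.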
